A study of Mus musculus with 19 samples.

Results

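Brain gene expression was compared between SCA3 transgenic mice and wild-type (wt) mice, all of which had received CCI-779. The arrays of each group were taken by their labels, 5 labelled SCA3 with CCI-779 and 5 labelled wt with CCI-779, which makes 10 of the 19 arrays of the series. The comparison itself was chosen with earlier results of these data known. All the mice were male, and CCI-779 was injected intraperitoneally, 3 injections of 20 mg/kg each week. Dosing began at an age of 5 weeks and lasted 6 weeks, after which the brains were frozen. The other 9 arrays came from mice injected with placebo equally often, 5 SCA3 and 4 wt, and they entered the same statistical fit and the test of the interaction of genotype and drug. The labels give no strain, no promoter for the transgene, no length of its repeat and no number of lines, so how closely the transgenic mice model the disease cannot be read from them. They also do not say whether each array came from a separate mouse. The p-values therefore rest on the spread among these arrays, and that spread may be technical. The samples are whole brain tissue, where fewer cells of a type and less RNA per cell cannot be told apart.

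Spinocerebellar ataxia type 3 (SCA3), or Machado-Joseph disease, is caused by an expanded CAG repeat in the gene of ataxin-3, which lengthens a polyglutamine stretch in the protein. Ataxin-3 is a deubiquitinase, an enzyme that trims ubiquitin chains from other proteins, and it works with the segregase VCP and the shuttle factors RAD23 in protein quality control. CCI-779 (temsirolimus) is an ester of rapamycin that binds FKBP12 and inhibits the kinase complex mTORC1, which promotes protein synthesis and restrains autophagy. The comparison addresses which transcripts differ between the genotypes when both are under the drug.

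Levels below are log2 intensities of Affymetrix probe sets. Differences are log2 values of SCA3 minus wt, each with the standard error (SE) of limma's moderated test. SD is the spread between the arrays of a group, "adjusted" means the Benjamini-Hochberg method over the 20473 probe sets tested, and a probe set passed when its adjusted p was under 0.05. Each gene is represented by its brightest tested probe set, which gave 10454 genes. The neuronal transcript Snap25 read 15.09 to 15.21 and the myelin transcript Mbp 15.16 to 15.39 on the 10 arrays, and the astrocyte transcript Gfap read 8.99 to 11.28. Among the 10 arrays, wt CCI-779 replicate 1 stood apart on the first principal component over all 19 arrays (score −66.3). The label of that array gives no replicate number, and it is called 1 here because the other wt CCI-779 labels use 2 to 5. On the second component SCA3 CCI-779 replicates 2 and 5 stood apart (scores −42.4 and −39.2). The median SD of a probe set was 0.16 in the SCA3 group and 0.11 without replicates 2 and 5, and 0.15 in the wt group and 0.11 without replicate 1. For many named genes whose difference changed by over 1.5 times without SCA3 replicates 2 and 5, or without wt replicate 1, the value without them is given too. It is not given for all of them, such as Vcp, so a missing value does not mean that a difference was stable. Bacterial spike-ins added before hybridisation averaged 10.21 ± 0.08 (SD, n = 5) in SCA3 and 9.89 ± 0.25 (SD, n = 5) in wt, a difference of 0.32 (exact two-sided permutation p = 0.0397, adjusted 0.198 over 5 array measures). The part of that difference in the results below was not tested. The same spike-ins read 9.62 to 10.34 on the CCI-779 arrays and 10.50 to 11.26 on the placebo arrays, without overlap. The 3′ minus 5′ log2 difference of GAPDH did not overlap either, at −0.44 to 0.28 with CCI-779 and −0.58 to −0.47 with placebo. How far these array differences bear on the drug steps below, which compare CCI-779 with placebo within a genotype, was not tested.

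The transcripts of a pair of nucleic acid-binding proteins, Ybx3 and Fubp3, were lower in SCA3 than in wt mice under the drug, and no gene was higher past the threshold. In all, 2 of 20473 probe sets passed (0.00977%), both lower, or 2 of 10454 genes (0.0191%). At an unadjusted p under 0.05 the fit held 3163 probe sets (15.4%). Ybx3 fell by 0.50 (1.41-fold) and Fubp3 by 0.78 (1.72-fold), and for each of them all 5 SCA3 arrays lay below all 5 wt arrays.

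Ybx3 encodes a cold shock domain protein that binds DNA and RNA and acts in transcription and translation. In SCA3 mice its level was 10.09, 9.99, 10.09, 10.04 and 10.01 in replicates 1 to 5, a mean of 10.04 ± 0.05 (SD, n = 5). In wt mice it was 10.58, 10.48, 10.51, 10.62 and 10.52, a mean of 10.54 ± 0.06 (SD, n = 5). The gap between the groups was thus wider than the range within either of them. The difference of −0.50 had an SE of 0.07 (limma, adjusted p = 0.0140, from an unadjusted 6.82e-07). The groups without the drug were close to each other, at 10.65 ± 0.09 (SD, n = 5) in SCA3 placebo and 10.73 ± 0.18 (SD, n = 4) in wt placebo, a difference of −0.08 (adjusted p = 0.982). Ybx3 was accordingly lower in drug-treated than in placebo SCA3 mice (−0.61, adjusted p = 8.71e-05), whereas the same step in wt mice, −0.19, did not pass (adjusted p = 0.0894). The interaction, which tests whether those steps differ, was −0.42 (SE 0.10) with an unadjusted p of 4.17e-04 and did not pass (adjusted p = 0.419). A dimmer probe set of Ybx3 with a mean level of 7.13 did not show the difference (0.01, SE 0.14, adjusted p = 0.983), and the mean of both gave −0.24 (adjusted p = 0.228). Ybx1, a paralog, differed by 0.07 (SE 0.05, adjusted p = 0.545).

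Fubp3 encodes a KH-domain protein of the family that binds the far upstream element of single-stranded DNA. In SCA3 mice it read 8.41, 7.88, 8.43, 8.52 and 8.36 in replicates 1 to 5, a mean of 8.32 ± 0.25 (SD, n = 5). In wt mice it read 9.32, 8.96, 8.97, 9.09 and 9.18, a mean of 9.10 ± 0.15 (SD, n = 5). SCA3 replicate 2 was the lowest array, yet the other 4 SCA3 arrays were also below every wt array. The difference of −0.78 had an SE of 0.11 (limma, adjusted p = 0.0207, from an unadjusted 2.02e-06), and without SCA3 replicate 2 it was −0.67 (adjusted p = 0.0339). Placebo levels lay between the drug-treated groups, 8.72 ± 0.10 (SD, n = 5) in SCA3 and 8.73 ± 0.20 (SD, n = 4) in wt. The drug step in SCA3 was −0.40 (adjusted p = 0.0258), while in wt it was 0.37 and missed the threshold (adjusted p = 0.0505). These steps have opposite signs, and the interaction was −0.77 (SE 0.16, unadjusted p = 2.03e-04, adjusted 0.419). Fubp3 has 1 probe set on the array. The paralog Fubp1 had 3 tested probe sets, with differences of −0.34, −0.15 and −0.27 (adjusted p = 0.171, 0.506 and 0.380). The second was −0.25 without wt replicate 1, and the third −0.13 without SCA3 replicates 2 and 5.

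Both calls depend on which arrays are used, although the values stay near the same size. On the 10 drug-treated arrays alone Ybx3 passed (adjusted p = 0.0284) and Fubp3 did not (adjusted p = 0.402), and Fubp3 also did not pass when dim probe sets were kept in (adjusted p = 0.0742). Neither gene passed without wt replicate 5 (adjusted p = 0.0539 for Ybx3 and 0.0687 for Fubp3) or without SCA3 replicate 5 (0.0706 for both), and Fubp3 also did not pass without wt replicate 4 (0.0535) or SCA3 replicate 1 (0.0542). Without wt replicate 1 and SCA3 replicates 2 and 5 together, Ybx3 differed by −0.46 (adjusted p = 0.0701) and Fubp3 by −0.60 (adjusted p = 0.0598).

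**Figure D1:**
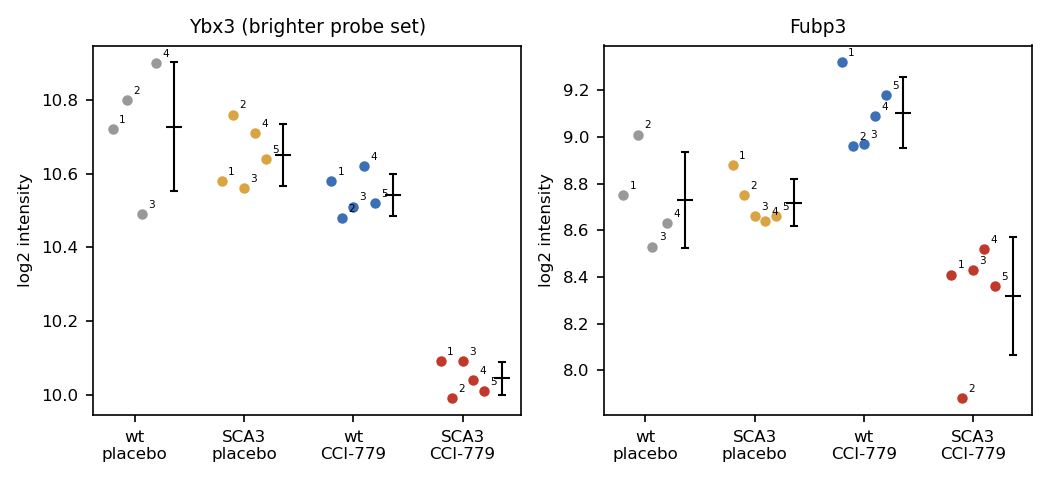
Log2 intensity of the brighter Ybx3 probe set and of Fubp3 on every array of the 4 groups, with the replicate number beside each point and the group mean ± SD as a black bar. The 5 SCA3 CCI-779 arrays lie at 9.99 to 10.09 for Ybx3 and 7.88 to 8.52 for Fubp3, below all wt CCI-779 arrays in both panels.

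Over all genes the differences were small and leaned downward. The median difference was −0.04, with 4040 genes positive and 6414 negative, and the median SE was 0.09. This median was −0.02 without wt replicate 1, −0.02 without SCA3 replicates 2 and 5, and −0.00 without all 3. At an unadjusted p under 0.05 there were 449 genes higher in SCA3 (4.30%) and 1443 lower (13.8%), so that 76.3% of them were lower. Centring each array on its median over the tested probe sets moved the median difference to −0.01, with 739 genes higher and 962 lower (56.6% lower). Centring over all probe sets, tried after the data were seen, gave 370 higher and 1263 lower (77.3% lower), and quantile normalization gave 647 and 1133 (63.7% lower). The split was 549 to 933 without wt replicate 1 (63.0% lower), 119 to 565 without SCA3 replicates 2 and 5 (82.6% lower) and 224 to 451 without all 3 (66.8% lower). More genes were lower than higher in each of these settings, and the size of the lean moved in either direction. The 5 arrays of each group did not overlap for 61 genes with SCA3 above wt (0.584%) and 253 with SCA3 below (2.42%). No probe set passed for the interaction of genotype and drug, with 1573 at an unadjusted p under 0.05 (7.68%).

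**Figure D2:**
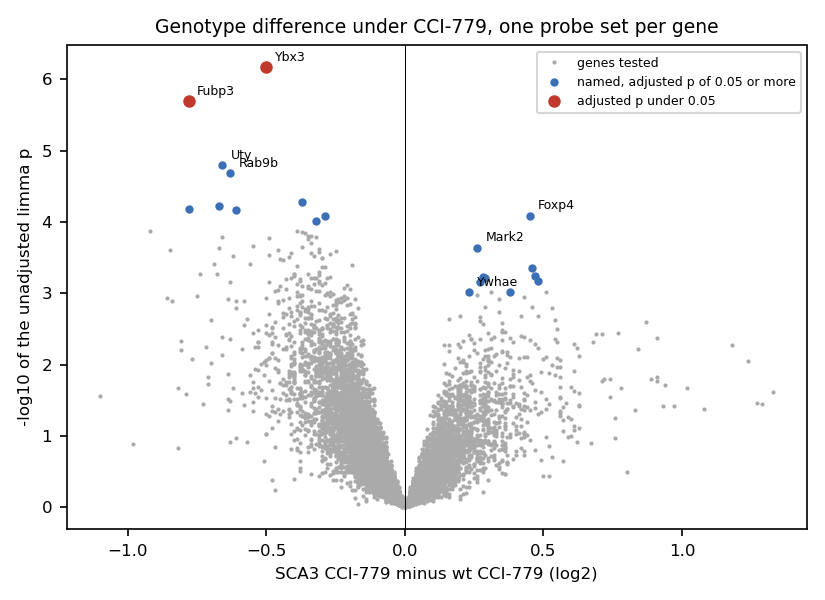
Each point is 1 of the 10454 genes, with its log2 difference of SCA3 CCI-779 minus wt CCI-779 on the x axis and −log10 of the unadjusted limma p on the y axis. Ybx3 and Fubp3 (red) passed after adjustment, the 18 further named genes (blue) did not, and more genes of low p lie to the left of 0 than to the right.

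The genes next in order of p on the lower side, none of which passed, were spread over several functions. Uty, the Y-linked relative of the histone demethylase Utx, read 5.23, 4.96, 5.34, 5.13 and 4.98 in SCA3 and 5.65, 5.44, 5.78, 5.93 and 6.14 in wt mice. The groups did not overlap, and the difference was −0.66 (SE 0.11, adjusted p = 0.0857). Uty passed without wt replicate 2, its lowest wt array (−0.75, adjusted p = 0.0197), and without SCA3 replicate 3 (−0.71, adjusted p = 0.0398). A dimmer Uty probe set gave −0.18 with overlap (adjusted p = 0.597). Eif2s3y, another Y-linked gene, differed by 0.06 (SE 0.17, adjusted p = 0.903), and by −0.07 without wt replicate 2. Rab9b, a small GTPase of endosomal transport, read 7.82 to 8.12 in SCA3 and 8.26 to 8.89 in wt mice, a difference of −0.63 (SE 0.11, adjusted p = 0.0857). Rab9b passed without wt replicate 4 (−0.71, adjusted p = 0.0407). Its placebo levels were 8.09 ± 0.19 (SD, n = 5) in SCA3 and 8.22 ± 0.08 (SD, n = 4) in wt, so the wt group under the drug was the one that stood higher. In wt mice Rab9b rose under the drug by 0.38 (adjusted p = 0.0429).

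In other genes it was the SCA3 group under the drug that stood apart from the remaining 3. Klhl4, a kelch-family gene, averaged 8.38 ± 0.27 (SD, n = 5) in the drug-treated SCA3 group against 9.05 ± 0.14 (SD, n = 5) in the wt group, with 9.13 and 9.09 in SCA3 and wt placebo. Its genotype difference under the drug was −0.67 (SE 0.13, adjusted p = 0.111). Haus3, a subunit of the augmin complex that nucleates microtubules, averaged 5.96 ± 0.27 (SD, n = 5) against 6.57 ± 0.13 (SD, n = 5), with placebo means of 6.66 and 6.52. Its lowest array, SCA3 replicate 1 at 5.49, was far from the rest of its group at 6.04 to 6.12. Socs5, an inhibitor of cytokine signalling, showed −0.37 with placebo means of 10.89 and 11.01 (adjusted p = 0.111). A dimmer Socs5 probe set gave −0.03 (adjusted p = 0.886).

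The remaining lower genes of this order were Prss23, a serine protease, at −0.78, the m6A reader Ythdf3 at −0.29 and the zinc finger gene Zfp37 at −0.32 (each adjusted p = 0.111). Prss23 read 7.94 to 8.48 in SCA3 and 8.73 to 9.30 in wt mice, and its second probe set gave −0.46 (adjusted p = 0.190). The other probe sets of Ythdf3 gave −0.21 and −0.09 (adjusted p = 0.483 and 0.481), and that of Zfp37 gave −0.11 (adjusted p = 0.572), all with overlap. For all 10 lower genes named, Ybx3 and Fubp3 included, the groups did not overlap on the brightest probe set, against 2.42% of all genes. The 10 were picked by small p in this same comparison, so this separation was largely fixed by the choice.

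On the higher side no gene passed, and the 10 with the smallest p ranged from 0.23 to 0.48. Foxp4, a forkhead transcription factor, read 6.32, 6.61, 6.39, 6.43 and 6.73 in SCA3 and 6.21, 6.06, 6.04, 6.09 and 5.84 in wt mice. The groups did not overlap, with the closest arrays 6.32 and 6.21, and the difference was 0.45 (SE 0.09, adjusted p = 0.111). Its placebo means were 5.77 in SCA3 and 5.75 in wt, and the drug step was 0.73 in SCA3 mice (adjusted p = 1.74e-04), against 0.29 in wt mice (adjusted p = 0.0495). Foxp4 did pass when each array was centred on its median over the tested probe sets, with a difference of 0.48 (adjusted p = 0.0357). Mark2, a kinase that phosphorylates microtubule-associated proteins such as tau, averaged 10.40 ± 0.07 (SD, n = 5) in SCA3 and 10.14 ± 0.07 (SD, n = 5) in wt mice, a difference of 0.26 (SE 0.06, adjusted p = 0.111). The groups did not overlap, and the placebo means were 9.88 in SCA3 and 9.84 in wt mice. A dimmer Mark2 probe set gave 0.60 with overlap (adjusted p = 0.199). On it SCA3 replicates 2 and 5 read 9.42 and 8.85, the other SCA3 arrays 7.88 to 8.14 and the wt arrays 7.70 to 8.01.

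Camk2n2, an inhibitor of the calcium-calmodulin kinase CaMKII, read 11.55, 11.96, 11.35, 11.54 and 12.07 in SCA3 mice and 11.12 to 11.29 in wt mice (0.47, adjusted p = 0.130). SCA3 replicates 2 and 5 were its highest arrays, and without them and wt replicate 1 the difference was 0.25. Cplx2, a complexin that clamps synaptic vesicle fusion, read 11.78 to 12.37 in SCA3 and 11.54 to 11.81 in wt mice, which overlap (0.38, adjusted p = 0.137). Its other probe sets gave 0.21 and −0.23, and the brightest gave 0.21 without SCA3 replicates 2 and 5. Ywhae, a 14-3-3 protein, showed 0.23 on its brightest probe set (adjusted p = 0.137), and 0.23, 0.15 and −0.29 on the other 3, so its direction depends on the probe set. Cic, the repressor capicua that binds the polyglutamine protein ataxin-1, showed 0.48 with overlap, since SCA3 replicate 3 at 8.73 lay below the wt maximum of 8.78 (adjusted p = 0.130). Without that array Cic passed, at 0.59 (adjusted p = 0.0398), and without SCA3 replicates 2 and 5 it showed 0.32.

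The other 4 higher genes were Dcbld1 at 0.46 (adjusted p = 0.122), the zinc finger gene Zfp513 at 0.28, Rpgrip1, which encodes a protein of the photoreceptor cilium, at 0.27, and Rhobtb2 at 0.29 (each adjusted p = 0.130). In Rhobtb2 alone of these 4 did the groups overlap, at wt replicate 1 (8.72 against an SCA3 minimum of 8.69). A second probe set of Rhobtb2 gave −0.00 (adjusted p = 0.990). Of the 10 higher genes named, the groups overlapped in Rhobtb2, Cic and Cplx2. These 10 were also picked by small p, so the separation in the others was largely fixed by the choice. Of all genes, 0.584% had SCA3 above wt without overlap.

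**Figure D3:**
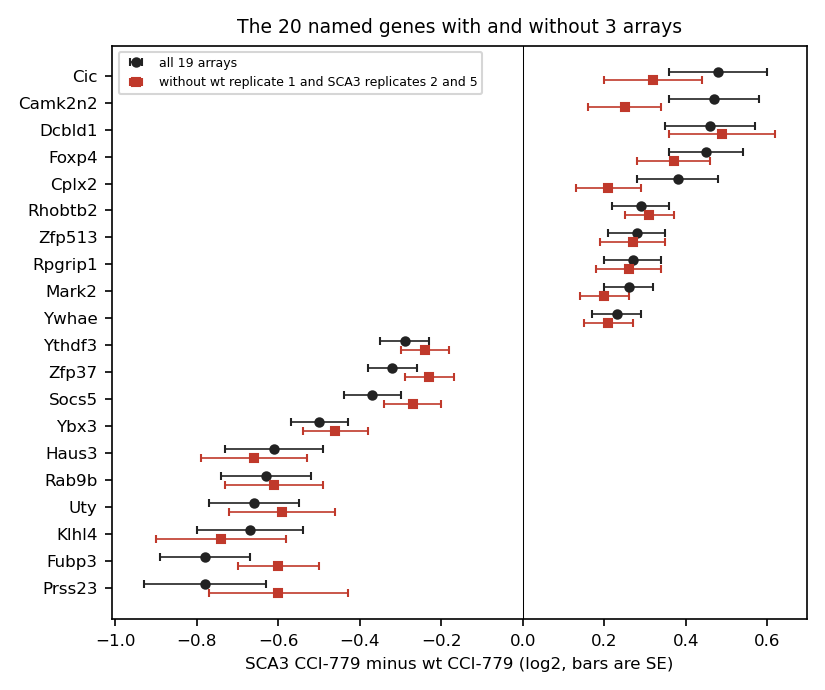
Differences of SCA3 CCI-779 minus wt CCI-779 (log2, bars are SE) for the 10 higher and 10 lower named genes, over all 19 arrays (black circles) and without wt CCI-779 replicate 1 and SCA3 CCI-779 replicates 2 and 5 (red squares). All 20 genes keep their sign without the 3 arrays, and Camk2n2 (0.47 to 0.25) and Cplx2 (0.38 to 0.21) shrink most among the higher genes.

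The differences that were largest in size were not those of smallest p, and on the higher side they rested on SCA3 replicates 2 and 5. Of the 47 genes over 1.5-fold higher in SCA3, these replicates were the highest pair of the 10 arrays in 44 (93.6%, against 10.5% of all genes). Without them 3 of the 47 stayed over 1.5-fold higher, and the median difference of the 47 went from 0.74 to 0.17. The 47 were picked on means that include this pair, so part of the shrinking was fixed by the choice. Over all genes tested, 11 were over 1.5-fold higher without the pair. Of the 47 genes over 1.5-fold lower, replicates 2 and 5 were the lowest pair in 27 (57.4%, against 18.6% of all genes), and wt replicate 1 was the highest array in 22 (46.8%, against 36.4%). These 47 were likewise picked on means that include the pair and wt replicate 1, so part of both excesses was fixed by the choice. Without SCA3 replicates 2 and 5, 22 of these 47 stayed over 1.5-fold lower, and over all genes tested 31 were over 1.5-fold lower.

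The 7 genes whose difference exceeded 1 show this pattern, and they are named here after their values were seen. Slc17a7, the vesicular glutamate transporter of cortical excitatory neurons, read 9.92, 12.48, 10.19, 9.96 and 12.40 in SCA3 replicates 1 to 5 and 9.22, 10.05, 9.78, 10.07 and 9.62 in wt mice. SCA3 replicates 1, 3 and 4 were inside or just above the wt range, and the difference went from 1.24 (adjusted p = 0.200) to 0.28 without replicates 2 and 5. Sncb, which encodes the presynaptic protein beta-synuclein, read 9.28, 11.84, 9.54, 9.66 and 11.55 in SCA3 and 9.08 to 9.44 in wt mice. Its difference of 1.18 became 0.30 without the pair.

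The transcription factor gene Maz read 9.93 and 9.56 in SCA3 replicates 2 and 5, and 6.34 to 6.52 in the other 3. Its difference was 1.27 with the pair and −0.06 without. Them6 (1.33, then 0.03), Zfp423 (1.29, then −0.02), Lbh (1.08, then −0.08) and Mypop (1.02, then 0.23) were alike in this respect. None of the 7 passed (adjusted p = 0.186 to 0.306). The only gene under −1 was Gm19439 at −1.10 (adjusted p = 0.277). There SCA3 replicate 1 and wt replicate 1 both read 7.54, wt replicate 3 read 8.89, and the groups overlapped widely.

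The mouse gene Atxn3 itself was lower in SCA3 than in wt mice under the drug without passing. It read 8.61, 8.41, 8.38, 8.48 and 8.13 in SCA3 mice (8.40 ± 0.18, SD, n = 5) and 8.96, 8.71, 8.60, 8.89 and 8.77 in wt mice (8.79 ± 0.14, SD, n = 5). The groups overlapped by 1 array, SCA3 replicate 1 at 8.61 against wt replicate 3 at 8.60. The difference was −0.39 (SE 0.09, unadjusted p = 7.42e-04, adjusted 0.130), against −0.14 under placebo, and the interaction was −0.25 (adjusted p = 0.689). Of its 2 probe sets 1 was bright enough to be tested. Whether it reads the transgene as well was not tested, and it checks no label. Prnp, the prion protein gene, differed by 0.05 (SE 0.05, adjusted p = 0.624) and 0.19 (SE 0.10, adjusted p = 0.357) on its 2 probe sets, the latter 0.07 without wt replicate 1.

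Usp15, a deubiquitinase measured by 5 tested probe sets, showed no shared direction, with 0.03, 0.09, −0.15, 0.22 and −0.15 from the brightest to the dimmest (adjusted p = 0.410 to 0.920). On the third of these, SCA3 replicates 2 and 5 read 7.62 and 7.58 while replicates 1, 3 and 4 read 6.84, 6.43 and 6.87, and the 5 wt arrays ran from 6.86 to 7.44. The groups overlapped at SCA3 replicate 4, and the difference was −0.51 without SCA3 replicates 2 and 5. The brightest became −0.06 without SCA3 replicates 2 and 5 and −0.06 without wt replicate 1, so even its sign rests on single arrays. The dimmest was −0.08 without wt replicate 1.

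Among 13 measured genes of ataxin-3 and its partners the median difference was 0.01, and none passed. At an unadjusted p under 0.05, 2 were higher (15.4%, against 4.30% of all genes) and 1 lower (7.69%, against 13.8%). Rad23b, a shuttle factor that brings ubiquitinated proteins to the proteasome, showed 0.38 (adjusted p = 0.283), with SCA3 replicates 2 and 5 at 11.59 and 11.76, the other SCA3 arrays at 10.73 to 10.95 and the wt arrays at 10.52 to 10.97. Without that pair Rad23b showed 0.04. Stub1, the ubiquitin ligase CHIP, showed 0.21 (adjusted p = 0.309), or 0.07 without the same pair, and Vcp 0.10 (adjusted p = 0.444). Of 7 other polyglutamine disease genes, Atn1 of dentatorubral-pallidoluysian atrophy showed 0.91 (adjusted p = 0.230). It read 7.75, 9.47, 7.52, 7.97 and 9.57 in SCA3 and 6.91 to 7.98 in wt mice, against 6.05 and 6.08 as placebo means of SCA3 and wt. Without SCA3 replicates 2 and 5 its difference was 0.20. Tbp, the gene of SCA17, showed −0.29 (adjusted p = 0.201), or −0.19 without that pair, and the huntingtin gene Htt 0.16 (adjusted p = 0.505).

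**Figure D4:**
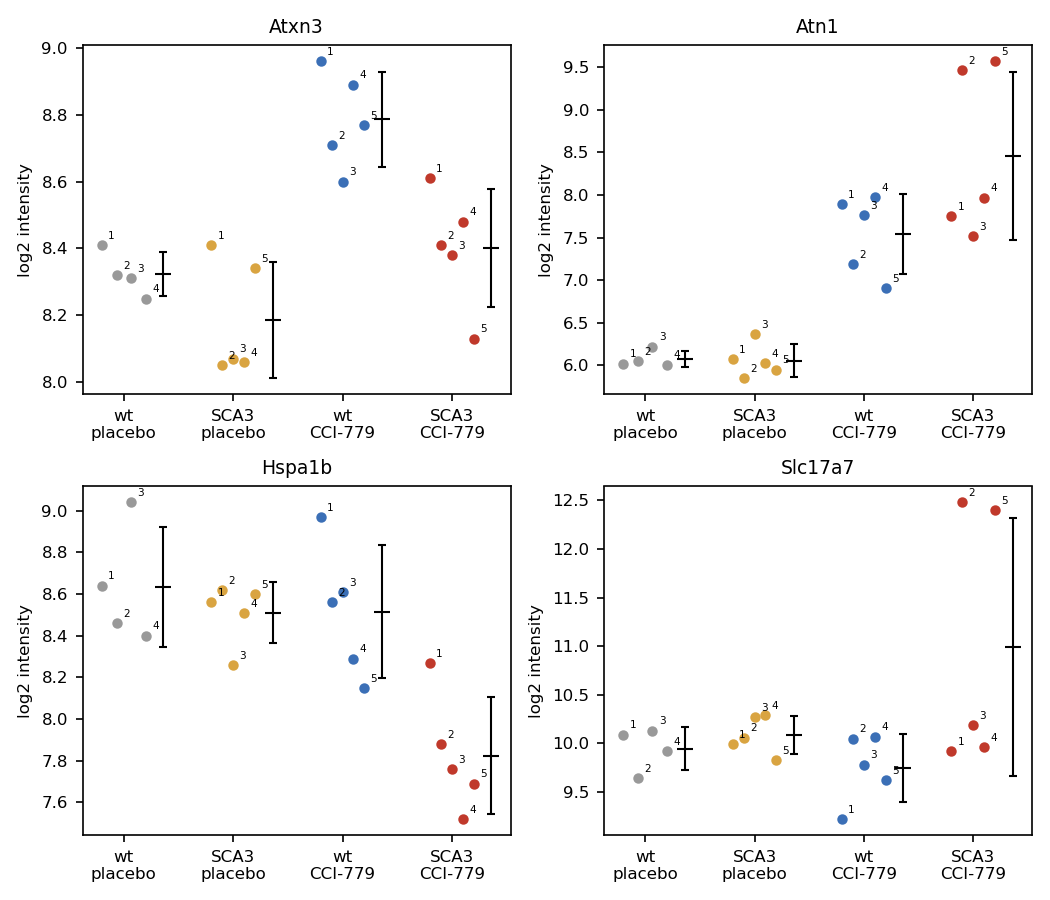
Log2 intensity of Atxn3, Atn1, Hspa1b and Slc17a7 on every array of the 4 groups, with replicate numbers and the group mean ± SD as a black bar. Atxn3 and Hspa1b are lower in SCA3 than in wt mice under CCI-779 with a small overlap, while in Atn1 and Slc17a7 the higher SCA3 mean comes from replicates 2 and 5.

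The genes of the drug's own pathway differed little between the genotypes. Of 24 measured mTOR pathway genes none passed, and the median was −0.02. At an unadjusted p under 0.05, 1 was higher (4.17%, against 4.30% of all genes) and 4 lower (16.7%, against 13.8%). Mtor showed 0.03 (SE 0.09, adjusted p = 0.901), and the mTORC1 and mTORC2 scaffolds Rptor and Rictor showed −0.13 (adjusted p = 0.515) and −0.28 (adjusted p = 0.208). Rps6, the ribosomal protein phosphorylated downstream of mTORC1, showed −0.19 (adjusted p = 0.187), and the S6 kinase gene Rps6kb2 showed 0.50 with overlap (adjusted p = 0.198). Of 34 autophagy genes none passed and the median was again −0.02. Map1lc3b, which encodes the autophagosome protein LC3B, showed −0.17 (adjusted p = 0.222), its relative Gabarap 0.26 (adjusted p = 0.240), and the lysosomal membrane gene Lamp2 −0.27 (adjusted p = 0.181). Without SCA3 replicates 2 and 5 these were −0.09 for Map1lc3b and −0.17 for Lamp2, and Rptor showed −0.05. Without wt replicate 1 Gabarap showed 0.15 and Rptor −0.05. Map1lc3b ran from −0.20 to −0.01 over the alternative settings.

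No gene of the protein quality control lists passed. Of 26 measured heat shock genes and cochaperones, 22 were negative and 4 positive, 8 were lower at an unadjusted p under 0.05 (30.8%, against 13.8% of all genes) and none higher (against 4.30%), and the median was −0.11 against −0.04 over all genes. Their mean level was 10.49 to 10.63 on the SCA3 arrays and 10.63 to 10.80 on the wt arrays, of which wt replicate 1 was the highest. Without the 3 arrays that stood apart the median was −0.05, against −0.00 over all genes. Hspa1b, the inducible heat shock protein HSP70, read 8.27, 7.88, 7.76, 7.52 and 7.69 in SCA3 and 8.97, 8.56, 8.61, 8.29 and 8.15 in wt mice. That is an overlap of 1 array in each group, and a difference of −0.69 (SE 0.16, adjusted p = 0.122). The small heat shock gene Cryab showed −0.33 (adjusted p = 0.166), and Chordc1, an HSP90 cochaperone gene, −0.27 with no overlap between the groups (adjusted p = 0.157), or −0.17 without SCA3 replicates 2 and 5.

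Of 51 deubiquitinases, 9 were lower at an unadjusted p under 0.05 (17.6%, against 13.8% of all genes) and none higher (against 4.30%). Their median was −0.06. In 3 every SCA3 array was below every wt array (5.88%, against 2.42% of all genes), Usp25 (−0.31, adjusted p = 0.130), Usp53 (−0.42, adjusted p = 0.139) and Usp33 (−0.20, adjusted p = 0.190). Usp53 showed −0.25 and Usp33 −0.11 without SCA3 replicates 2 and 5. Of 61 ubiquitin ligases 4 were higher and 11 lower, against 4.30% and 13.8% of all genes. Among them Rnf157 showed −0.32 (adjusted p = 0.111), although the mean of its probe sets gave 0.03. Trim32 showed 0.77 (adjusted p = 0.174), with SCA3 replicates 2 and 5 at 12.11 and 12.13 against 10.84 to 11.25 in the other SCA3 arrays, and 0.32 without that pair. The 31 proteasome genes had a median of −0.03, close to the −0.04 of all genes. At an unadjusted p under 0.05, 2 were higher (6.45%, against 4.30% of all genes) and 2 lower (6.45%, against 13.8%). The 21 genes of the unfolded protein response had a median of −0.08. Without SCA3 replicates 2 and 5 it was −0.04, against −0.02 over all genes. At an unadjusted p under 0.05, 4 of them were lower (19.0%, against 13.8% of all genes) and none higher (against 4.30%). The chaperone gene Canx showed −0.20 (adjusted p = 0.181) and the stress sensor gene Eif2ak3 −0.23 (adjusted p = 0.195).

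Splicing and nuclear RNA-binding genes were the only list with a member that passed, Fubp3. Of 59 measured, 14 were lower (23.7%, against 13.8% of all genes) and 4 higher (6.78%, against 4.30%) at an unadjusted p under 0.05, and the median was −0.06. In 6 every SCA3 array was below every wt array (10.2%, against 2.42% of all genes). Besides Fubp3 these were Hnrnpm (−0.28, adjusted p = 0.138), Tardbp, which encodes TDP-43 (−0.27, adjusted p = 0.155), Matr3 (−0.18), Srsf10 (−0.30) and Hnrnpk (−0.11). Tardbp read 10.13, 10.08, 10.31, 10.29 and 10.01 in SCA3 and 10.41, 10.46, 10.38, 10.33 and 10.61 in wt mice, with the closest arrays at 10.31 and 10.33. Its placebo difference was already −0.23. Matr3 ran from −0.21 to −0.04 over the alternative settings. Hdac2, a histone deacetylase, also did not overlap (−0.30, adjusted p = 0.111), and the Mediator subunit gene Med1 showed −0.36 without overlap (adjusted p = 0.170), or −0.20 without SCA3 replicates 2 and 5.

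Of 31 measured genes of synaptic vesicles and transmission, 21 were positive. At an unadjusted p under 0.05, 9 were higher (29.0%, against 4.30% of all genes) and none lower (against 13.8%). The median was 0.09 with all arrays and with the 3 arrays left out, and 0.04 without SCA3 replicates 2 and 5 alone. In 4 genes every SCA3 array was above every wt array (12.9%, against 0.584% of all genes). These were Vamp2, a vesicle SNARE, Shank3, a postsynaptic scaffold, Rims1, an active zone protein, and the synaptotagmin gene Syt11 (0.14, adjusted p = 0.579). Vamp2 read 12.69 to 12.89 in SCA3 and 12.28 to 12.56 in wt mice (0.30, adjusted p = 0.270). Shank3 read 10.16 to 10.53 against 9.78 to 10.15 (0.30, adjusted p = 0.205), and Rims1 11.09 to 11.22 against 10.74 to 11.08 (0.23, adjusted p = 0.279). Syn2, a synapsin gene, showed 0.23 with overlap (adjusted p = 0.177). The mean level of the list was 11.61 to 11.78 in SCA3 and 11.51 to 11.61 in wt mice, highest in SCA3 replicates 2 and 5 at 11.78 each. The placebo median of the same list was also 0.09.

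Receptors and channels gave no shared direction. The 26 glutamate and GABA receptor genes had a median of −0.01, with the metabotropic receptor gene Grm2 at 0.45 and no overlap (adjusted p = 0.181), and Gabra5 at −0.24 (adjusted p = 0.181). Of 35 ion channel genes 7 were lower (20.0%, against 13.8% of all genes) and 1 higher (2.86%, against 4.30%) at an unadjusted p under 0.05. Scn2b, a sodium channel subunit gene, read 10.82 to 11.30 in SCA3 and 11.39 to 11.53 in wt mice (−0.34, adjusted p = 0.135). Scn2b showed −0.17 and Grm2 0.26 without SCA3 replicates 2 and 5. Over the alternative settings Scn2b ran from −0.39 to −0.07. Bdnf, the neurotrophin gene, showed −0.53 with overlap (adjusted p = 0.254), and the nuclear receptor gene Nr4a2 showed −0.33 (adjusted p = 0.171), but 0.02 as the mean of its probe sets.

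Of the cell type markers, none passed. The 24 genes of myelin and oligodendrocytes had a median difference of −0.04, with Ndrg1 at −0.29 and no overlap (adjusted p = 0.130) and Myrf at −0.29 (adjusted p = 0.196). The median was −0.08 without wt replicate 1 and −0.11 without SCA3 replicates 2 and 5, each against −0.02 over all genes. Without all 3 it was −0.13, against −0.00 over all genes. The list's placebo median was 0.19 and its median interaction −0.25. Ndrg1 ran from −0.33 to −0.03 over the alternative settings, so its size depends on the setting. Oligodendrocyte precursor genes had a median of −0.10 over 12, with Tnr at −0.66 (adjusted p = 0.180) and Vcan at −0.72 (adjusted p = 0.187), both highest in wt replicate 1 at 9.01 and 6.16. Without that array they showed −0.48 and −0.53, and Tnr showed −0.43 without SCA3 replicates 2 and 5. Of the 12 precursor genes 5 were lower at an unadjusted p under 0.05 (41.7%, against 13.8% of all genes) and none higher (against 4.30%). Microglial genes had a median of 0.04 over 15, and astrocyte genes −0.07 over 20. Cerebellar neuron genes, of interest in an ataxia, had a median of −0.01 over 14 genes, and −0.10 without SCA3 replicates 2 and 5. None of the 14 reached an unadjusted p under 0.05, against 18.1% of all genes. Their mean level ran from 10.21 to 10.65 in SCA3 and from 9.86 to 10.84 in wt mice, lowest on SCA3 replicate 1 and wt replicate 2. Under placebo the median of this list was 0.25, and its median interaction was −0.25. Striatal genes had a median of −0.01 over 13, with Ppp1r1b at 0.29 (adjusted p = 0.224) and Drd2 at 0.44 (adjusted p = 0.298), which were 0.16 and 0.14 without SCA3 replicates 2 and 5.

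Meningeal and fibroblast genes had a median of 0.14 over 16 genes, of which 13 were positive. At an unadjusted p under 0.05, 3 were higher (18.8%, against 4.30% of all genes) and none lower (against 13.8%). Gjb2, a gap junction gene, led with 0.91 (adjusted p = 0.181). It read 5.73, 7.35, 6.78, 7.25 and 7.38 in SCA3 and 5.59 to 6.34 in wt mice, so 4 of 5 SCA3 arrays were above all wt arrays, and the difference was 0.59 without replicates 2 and 5. The collagen gene Col1a1 showed 0.30 and the proteoglycan gene Bgn 0.34 (adjusted p = 0.246 and 0.287), which became 0.16 and 0.51 without that pair. The placebo median of this list was 0.13. Endothelial genes had a median of 0.03 over 13, with the glucose transporter gene Slc2a1 at −0.50 (adjusted p = 0.174) and Itm2a at −0.21 with no overlap (adjusted p = 0.191). The 13 genes of choroid plexus and ependyma had a median of −0.10 and the 10 of pericytes and smooth muscle −0.03. How far differences in dissection or in these cells bear on the results was not tested.

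The 13 complement and interferon genes had a median of 0.21, with 10 positive and 3 negative, but the subunits of complement C1q disagreed. C1qc showed 0.51 (adjusted p = 0.282) and C1qa 0.41 (adjusted p = 0.323), whereas C1qb showed −0.27 (adjusted p = 0.237). Without SCA3 replicates 2 and 5, C1qc showed 0.21 and C1qb −0.15, and the median of the list was 0.13. C1qa read 7.33 in wt replicate 1 and 8.17 to 8.69 in the other wt arrays, against 8.41 to 8.90 in SCA3 mice. Without wt replicate 1 its difference was 0.18. The interferon-induced genes Ifitm3 (0.33) and Ifit3 (0.32) overlapped between the groups (adjusted p = 0.417 and 0.377), and Ifit3 showed 0.15 without that pair. The list's mean level was 7.86 to 8.29 in SCA3 and 7.74 to 8.02 in wt mice.

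Of 15 genes that respond to glucocorticoids, 13 were negative, and their median of −0.31 was the farthest from that of all genes. The list's mean level was 9.01 to 9.46 in SCA3 mice and 9.22 to 10.08 in wt mice, where wt replicate 3 at 10.08 stood far above the other 4 at 9.22 to 9.37. Without that array the median was −0.16. Sgk1 read 12.88 in wt replicate 3, 10.80 to 11.90 in the other wt arrays and 10.69 to 11.78 in SCA3 mice (−0.47, adjusted p = 0.473, and −0.16 without that array). Fkbp5, a chaperone of the glucocorticoid receptor, showed −0.40 (adjusted p = 0.436), with SCA3 replicate 1 at 9.66 and the other 4 at 8.38 to 8.62. The smallest p in this list belonged to Klf9 (−0.27, adjusted p = 0.187) and Sult1a1 (−0.70, adjusted p = 0.203). Per1, a clock gene that also responds to these hormones, showed 0.63 (adjusted p = 0.381). With SCA3 replicates 2 and 5 left out, Per1 showed 0.14, Klf9 −0.17, Fkbp5 −0.20 and Sgk1 −0.29. Klf9 ran from −0.33 to −0.02 over the alternative settings.

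Among 17 clock genes 2 were higher (11.8%, against 4.30% of all genes) and 2 lower (11.8%, against 13.8%) at an unadjusted p under 0.05. Nr1d1, which encodes the clock repressor REV-ERBα, read 7.48 and 7.21 in SCA3 replicates 2 and 5, 5.19 to 5.21 in the other SCA3 arrays and 5.05 to 5.21 in wt mice. Its difference of 0.94 (adjusted p = 0.249) became 0.08 without that pair. Immediate early genes, transcribed within minutes of neuronal activity, had a median of −0.12 over 23 genes, or −0.05 without that pair, and their mean level ran from 7.77 to 8.55 in SCA3 and from 8.04 to 8.32 in wt mice.

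No gene of a metabolic list passed. The 17 glycolysis genes had a median of 0.06, and Eno2 among them showed 0.21 (adjusted p = 0.252). Without SCA3 replicates 2 and 5 these were 0.02 and 0.09. Sterol synthesis genes had a median of −0.11 over 19, with 15 negative. At an unadjusted p under 0.05, 1 was higher (5.26%, against 4.30% of all genes) and none lower (against 13.8%). Nsdhl showed −0.24 (adjusted p = 0.333) and Mvk 0.21 (adjusted p = 0.277), the latter 0.13 without wt replicate 1. Under placebo the median of this list was 0.17. For fatty acid synthesis the median of 15 genes was −0.00, with Acss2 at −0.34 (adjusted p = 0.253). The 71 genes of oxidative phosphorylation had a median of −0.00 and the 37 ribosomal protein genes 0.01. Of 26 antioxidant genes, the catalase gene Cat showed −0.34 with no overlap (adjusted p = 0.155), or −0.20 without SCA3 replicates 2 and 5. The 5 measured blood genes had a median of −0.17, which was −0.77 without wt replicate 5 and 0.17 without wt replicate 2, where Alas2, the erythroid heme synthesis gene, read 7.62.

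**Figure D5:**
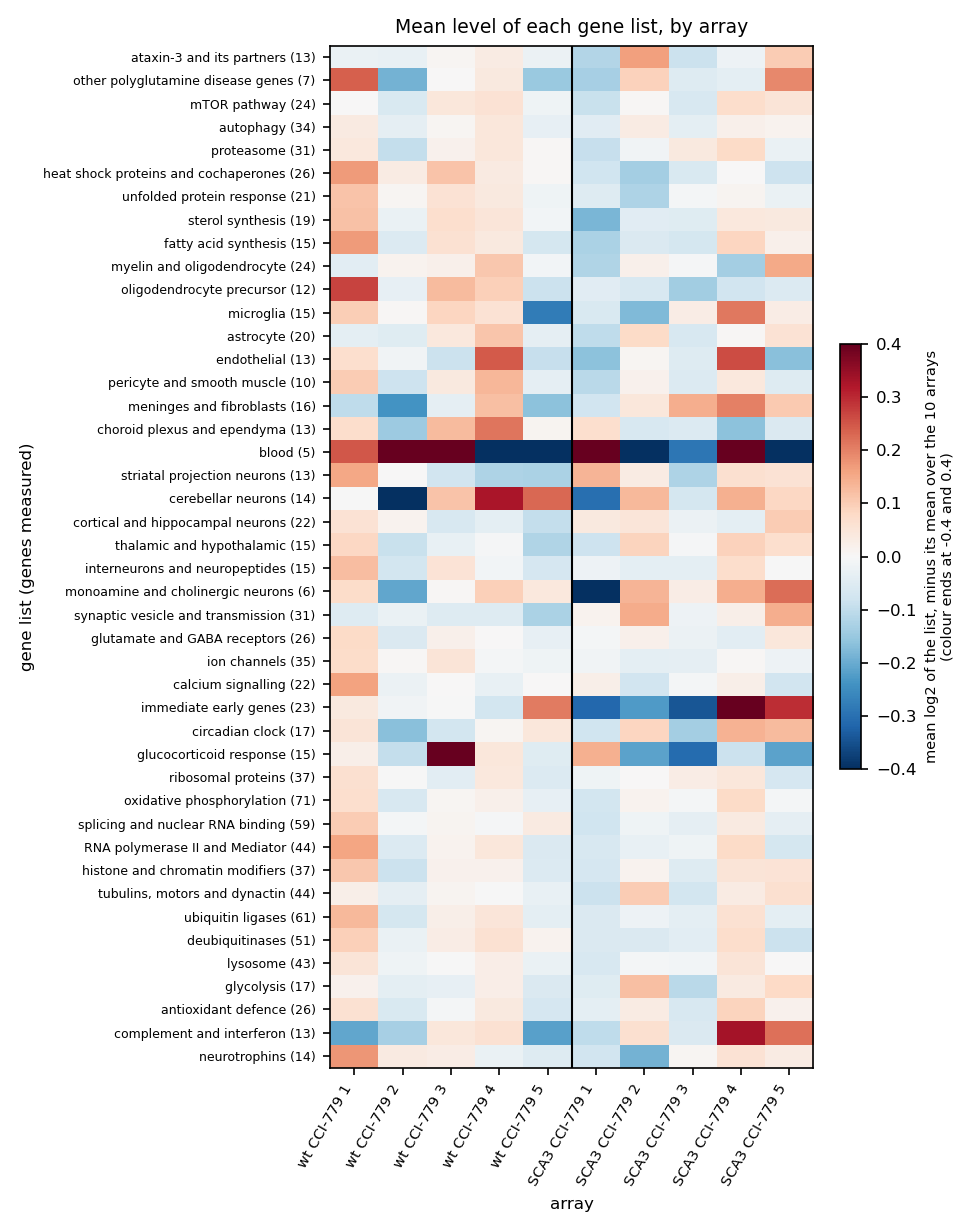
Mean log2 intensity of each gene list on the 10 CCI-779 arrays, minus the list's mean over the 10, with wt arrays left and SCA3 arrays right of the line and the number of genes measured in parentheses. Heat shock genes are lower on SCA3 arrays (10.49 to 10.63, against 10.63 to 10.80 in wt), and single arrays stand out, such as wt replicate 3 for glucocorticoid response (10.08) and wt replicate 2 for cerebellar neurons (9.86).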

How the data were processed

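The authors deposited GCRMA values (a method named in the submitters' processing notes, its version not given there) of 19 single-colour Affymetrix arrays as linear intensity. The deposited values were put on the log2 scale without a pseudocount. Apart from 64 control probe sets, the 20473 of 45037 others with a mean log2 of at least 4 were tested. The number of arrays limits the precision.

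Differences were tested by limma's moderated test (limma 3.58.1 under R 4.3.3) in 1 fit of 4 group means over all 19 arrays, two-sided, with Benjamini-Hochberg adjustment. Array measures were compared by exact permutation tests in SciPy 1.17.1. The fit was also run on simulated data with independent noise and no arrays that stood apart. That run therefore cannot show how such arrays bear on the calls here.

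Genes were named from the platform annotation. Of the other probe sets 34945 carried 1 symbol, 932 several and 9160 none, and none was named from several. No genome build is named, so no coordinates are given.

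The samples, the 45 gene lists and the rules were chosen with earlier results of these data known. Named were Atxn3, Usp15 and Prnp, and genes past the threshold or the next by p up to 10 in each direction. The rule for the lists was to name the 2 members with the smallest p, but it was not carried through. Some lists, such as the proteasome and microglial genes, are given without these members. Others, such as the lysosomal genes, are not described in the text. Of lists whose median lay over 0.1 from that of all genes, more members are named, and Fubp1, Ybx1, Eif2s3y and other members were added with their values known. Replicate numbers of the labels did not pair the samples across groups. Alternatives were other filters, normalizations, variance models, array weights, a replicate block, other thresholds, fits on fewer arrays and probe set means.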

Additional observations from a re-analysis of the deposited data

Results flagged for a closer look

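In 316 sets of 5 values, each set being a gene or array measure in 1 group, an array is listed here where its gap to the nearest other array was large against the range of its group by Dixon's test, which chance meets in about 5% of sets. There were 24 such values, of which 10 lay on wt CCI-779 replicate 1. That array read low for Mark2 (10.02), the brightest Usp15 probe set (7.66) and Gabarap (11.36), and high for the dimmest Usp15 probe set (5.40), Myrf (8.53), Drd2 (6.81), Sorcs1 (7.77) and Lbh (7.87). Its 3′ minus 5′ log2 difference was 0.28 for GAPDH and 2.55 for actin, both above the rest of its group.

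SCA3 CCI-779 replicate 1 read low for Haus3 (5.49) and high for Slc2a1 (12.02) and Fkbp5 (9.66). SCA3 CCI-779 replicate 2 was low for Fubp3 (7.88) and for the dimmest Usp15 probe set (4.74). SCA3 CCI-779 replicate 5 was low for Mvk (6.01) and high for Ifit3 (7.29). Among the wt CCI-779 arrays, replicate 2 was low for Ifit3 (5.91) and Eif2s3y (9.40), replicate 4 was low for Hbb-b2 (4.09) and high for Eno2 (13.30), and replicate 5 was low for Cryab (11.28) and for the mean of the synaptic list (11.51). The mean of the glucocorticoid list was 10.08 on wt CCI-779 replicate 3, against 9.22 to 9.37 on the others.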

How the results depend on the processing

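The count of 2 probe sets past the threshold was 2 with a filter at a mean log2 of 6, with quantile normalization again and with a trended robust variance, and 3 with each array centred on its median over the tested probe sets. It was 1 without a filter, 6 with array weights, 0 at a threshold of 0.01 and 6 at 0.1, 1 on the 10 CCI-779 arrays alone, 1 with probe sets averaged within a gene, and 0 without SCA3 CCI-779 replicates 2 and 5. Leaving out 1 array at a time gave 0 to 8. Among the drug-treated arrays it was 0 without replicate 5 of either genotype, 1 without SCA3 replicate 1, 5 without wt replicate 1 or 2, and 8 without SCA3 replicate 3. Without the 3 arrays that stood apart 2 other genes passed, Dync1li1 and Sp3. On the 10 arrays alone Fubp3 had an adjusted p of 0.402. With the replicate number as a block the count was 0 (Ybx3 −0.49, adjusted p = 0.0965, and Fubp3 −0.75, adjusted p = 0.119). Same-numbered arrays of the drug groups correlated at −0.11 to 0.13, and of replicates 2 to 5 replicate 4 alone correlated best with its own number. The interaction count was 0 in each setting run.

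Of the values of single genes under the alternatives, 4304 kept direction and side of the threshold, 15 lost it, 7 gained it and 33 changed sign. Changes of sign came with array weights (second Ybx3 probe set −0.04, brightest Usp15 −0.10, second Usp15 −0.06), with the block (brightest Usp15 −0.05) and without SCA3 CCI-779 replicates 2 and 5 (−0.20, −0.06 and −0.14 for these 3, Maz −0.06, Lbh −0.08, Zfp423 −0.02). Without the 3 arrays the same 3 probe sets gave −0.15, −0.15 and −0.13, and Rptor 0.02. With the mean of probe sets Cald1 gave 0.02, Rora 0.14, Nr4a2 0.02, Rnf157 0.03, Vcp −0.05 and Htt −0.02. Leaving out 1 array at a time gave −0.08 to 0.09 for the second Ybx3 probe set, −0.06 to 0.10 for the brightest Usp15, −0.01 to 0.17 for the second, −0.29 to 0.01 for the third, −0.01 to 0.09 for Mtor and, without wt replicate 2, −0.07 for Eif2s3y. The GAPDH 3′ minus 5′ difference of −0.07 was 0.06 and that of actin, −0.32, was 0.05 by medians, and GAPDH was 0.07 without wt CCI-779 replicate 1. The causes were not tested.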
